A study of Mus musculus with 8 samples.

Results

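The vascular endothelium was followed in these aortas through 10 genes that define it or that it uses to sense blood flow. They were chosen by gene symbol: the receptors *Kdr*, *Flt1*, *Tek*, *Tie1* and *Robo4*, the junctional cadherin *Cdh5*, the nitric oxide synthase *Nos3*, and the transcription factors *Erg*, *Klf2* and *Klf4*. All 10 were present among the 21859 genes of the count tables, and all 10 were among the 15077 genes that had enough counts to be tested. The libraries came from whole aortas of 40-week-old male mice on a C57BL/6 background that ate a normal chow diet. ApoE-/- mice (labelled ApoE knockout, n = 4) lack apolipoprotein E in every cell and were compared with WT mice (labelled Wild Type, n = 4) to find genes that differ in atherosclerosis. Each library was ribosome-depleted, stranded total RNA of 1 aorta, and its levels are given in CPM, the read pairs on a gene scaled to the library size with TMM factors.

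Endothelial cells line the lumen as a single sheet, and the adventitia and the surrounding fat hold capillaries with endothelial cells of their own. Laminar shear stress acts on these cells through the kinases MEK5 and ERK5 and MEF2 transcription factors to induce KLF2 and KLF4, which in turn raise NOS3 and keep the cells quiescent. The ETS factor ERG maintains the endothelial programme, including VE-cadherin, and VEGF, angiopoietin and Slit/Robo signalling through their receptors govern growth and barrier function.

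*Kdr*, *Flt1*, *Robo4* and *Cdh5*, 4 of the 10 genes, were lower in every ApoE-/- aorta than in any WT aorta, as were 3.30% of all tested genes. The mean level in ApoE-/- mice was 0.579 of the WT mean for *Kdr*, 0.592 for *Robo4*, 0.682 for *Flt1* and 0.776 for *Cdh5*. The angiopoietin receptors, *Nos3* and the Krüppel-like factors had lower means in ApoE-/- mice but overlapped with WT, and *Erg* had a slightly higher mean. With edgeR's quasi-likelihood test none of the 10 passed an adjusted p of 0.05 over all genes, where 0.464% of all genes did, nor with limma-voom, where 0.192% did. At an unadjusted p under 0.05, 11.4% of all genes in edgeR, 5 of the 10 were lower (*Cdh5*, *Kdr*, *Flt1*, *Tie1* and *Robo4*), against 4.17% of all genes. DESeq2, the tool the study used, called 4.29% of all genes and 1.45% lower, and *Cdh5*, *Kdr*, *Flt1* and *Robo4* were among the latter. Of the 10 log2 fold changes 9 were below 0, against 42.0% of all genes, and their median was -0.36 beside 0.05 over all genes. In a whole aorta, fewer endothelial cells and less RNA of these genes per endothelial cell cannot be told apart.

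The library of ApoE-/- mouse 1 stood apart from the other ApoE-/- libraries. The summed level of 6 smooth muscle markers was 4678 CPM in it, 11840 to 19230 CPM in the other ApoE-/- mice and 10390 to 19580 CPM in WT mice. Its 6 sympathetic neuron markers, a list added after the data were seen, summed to 5163 CPM, against 15.96 to 361 CPM in the other ApoE-/- mice and 210 to 879 CPM in WT mice. Without this library edgeR called 3 of the 10 genes, *Kdr*, *Flt1* and *Robo4*, all lower, against 1.16% of all genes lower and 2.75% higher. DESeq2 called 5 without it, which added *Cdh5*, lower, and *Erg*, higher. Over all genes DESeq2 called 9.18%, with 675 genes lower and 873 higher. The median log2 fold change of the 10 was then -0.28, beside 0.00 over all genes. The tests of the 10 genes are therefore given with and without it, as are the calls in the gene lists that change. *Apoe* itself lay at 14.7 to 36.3 CPM in the libraries labelled ApoE knockout and at 536 to 857 CPM in WT libraries. Between 23240995 and 23940156 read pairs fell on genes in ApoE-/- libraries and between 18375898 and 21664598 in WT libraries. The share of all pairs that fell on genes was 32.3% to 35.6% in ApoE-/- and 27.9% to 30.2% in WT libraries, without overlap, and the part of this difference in the results was not tested.

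**Figure D1:**
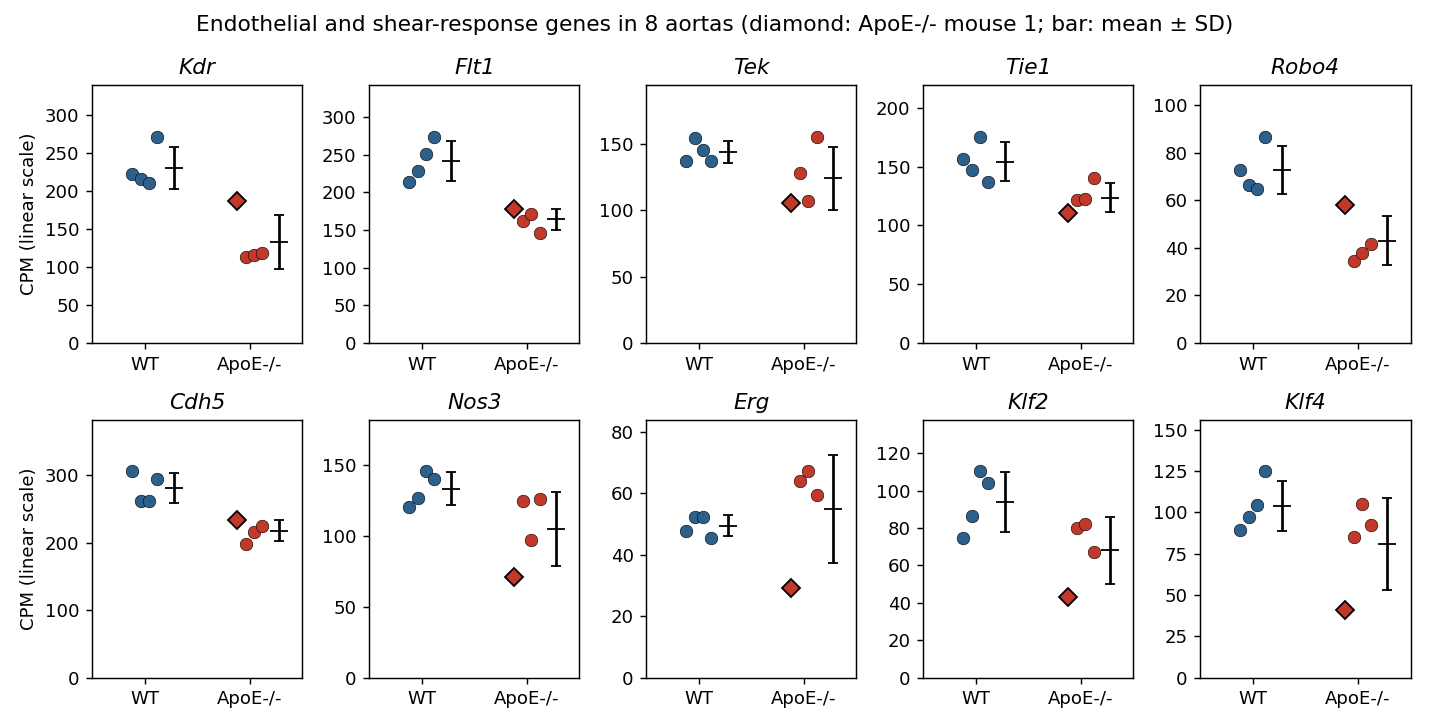
Levels of the 10 genes in CPM on linear axes that start at 0, with 1 point for each aorta and the mean ± SD beside each group (n = 4). *Kdr*, *Flt1*, *Robo4* and *Cdh5* separate the genotypes. ApoE-/- mouse 1, drawn as a diamond, is the lowest of the 8 for *Nos3*, *Erg*, *Klf2*, *Klf4*, *Tek* and *Tie1* but the highest ApoE-/- value for *Kdr*, *Flt1*, *Robo4* and *Cdh5*.

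Per length of transcript, in TPM, *Cdh5* was the most abundant of the 10 in WT aortas, with a level of 270 TPM ± 12.98 (SD, n = 4). *Klf2* followed at 206 TPM ± 35.3, and neither its range and that of *Cdh5* nor its range and that of *Klf4* overlapped in WT mice. *Klf4* (138 TPM), *Nos3* (131 TPM), *Tie1* (127 TPM), *Tek* (124 TPM) and *Kdr* (103 TPM) came next, and each overlapped with its neighbour in this order. *Flt1* was lower, at 72.4 TPM ± 7.17, without overlap with *Kdr*, and *Erg* (58.0 TPM) and *Robo4* (55.5 TPM) closed the order with overlapping ranges. In ApoE-/- aortas *Cdh5* also had the highest mean, 217 TPM, and *Robo4* the lowest, 33.9 TPM, but *Erg* at 66.8 TPM stood above *Kdr* at 61.6 TPM and *Flt1* at 51.4 TPM. These levels use the merged exons of each gene, which for *Flt1* come to 13504 bases over 6 transcripts, so that a short or truncated form would be underestimated.

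*Kdr* encodes VEGFR2, the main signalling receptor for VEGF-A in endothelial cells (GRCm38 chr5:75932827-75978458, minus strand). Its level was 186, 113, 115 and 118 CPM in ApoE-/- mice 1 to 4 and 222, 215, 211 and 271 CPM in WT mice 1 to 4. All ApoE-/- values were below all WT values, and ApoE-/- mouse 1 lay between the other ApoE-/- mice and WT. The mean was 133 CPM ± 35.4 (SD, n = 4) in ApoE-/- and 230 CPM ± 28.1 (SD, n = 4) in WT mice, and the log2 fold change was -0.79 with a standard error of 0.19 (edgeR adjusted p = 0.115, DESeq2 adjusted p = 0.00311). Without ApoE-/- mouse 1 the log2 fold change was -0.99 and the edgeR adjusted p was 0.00829.

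*Robo4* encodes an endothelial member of the Roundabout receptors that stabilizes the vascular barrier (chr9:37401897-37415115, plus strand). It measured 58.1, 34.5, 38.0 and 41.7 CPM in ApoE-/- mice 1 to 4 and 72.8, 66.6, 64.9 and 86.9 CPM in WT mice 1 to 4. The genotypes did not overlap, and ApoE-/- mouse 1 was again the highest of its group. For *Robo4* the log2 fold change was -0.76 with a standard error of 0.18 (edgeR adjusted p = 0.112, DESeq2 adjusted p = 0.0046), and without ApoE-/- mouse 1 it was -0.94 (edgeR adjusted p = 0.0117). *Robo4* ran parallel to *Kdr*: the 8 aortas had the same order in both genes, and the ratio of *Robo4* to *Kdr* CPM stayed between 0.305 and 0.354 in all 8 although *Kdr* itself ranged from 113 to 271 CPM.

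*Flt1* encodes VEGFR1, which binds VEGF-A tightly, signals weakly and in its soluble form acts as a decoy (chr5:147561604-147726011, minus strand). Its level was 178.5, 162, 172 and 146 CPM in ApoE-/- mice 1 to 4 and 213, 228, 251 and 274 CPM in WT mice 1 to 4. Here ApoE-/- mouse 1 lay close to the rest of its group, and the genotypes did not overlap. The log2 fold change was -0.55 with a standard error of 0.12 (edgeR adjusted p = 0.0936, DESeq2 adjusted p = 0.000461), the smallest p among the 10 genes with both tools, and without ApoE-/- mouse 1 it was -0.59 (edgeR adjusted p = 0.0453). The ratio of *Flt1* to *Kdr* CPM was 1.24 to 1.49 in ApoE-/- mice 2 to 4, 0.961 to 1.19 in WT mice and 0.960 in ApoE-/- mouse 1.

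The sequences before the start sites of these 3 receptors are shown because all 3 separated the genotypes and because the ETS family, to which ERG belongs, binds a GGAA core that many endothelial promoters carry. RefSeq promoters (GRCm38.p6) were given for 8 of the 10 genes, not for *Nos3* and *Cdh5*. The letters GGAAG were searched on both strands in the 250 bases before each RefSeq start, and capitals mark each match, as GGAAG on the sense strand or CTTCC on the antisense strand. Each sequence is written 5′ to 3′ in the direction of transcription, *Kdr* from chr5:75978459-75978705 and *Flt1* from chr5:147726012-147726261, both on the minus strand. Of *Robo4* only the 30 bases with both matches are shown, from chr9:37401924-37401953 on the plus strand, which lie past the first base of the annotated gene.
Kdr: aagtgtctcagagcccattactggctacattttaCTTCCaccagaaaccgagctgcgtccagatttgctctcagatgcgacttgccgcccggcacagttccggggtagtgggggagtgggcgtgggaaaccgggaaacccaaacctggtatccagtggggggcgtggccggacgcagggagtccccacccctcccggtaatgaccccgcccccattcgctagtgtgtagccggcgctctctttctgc
Flt1: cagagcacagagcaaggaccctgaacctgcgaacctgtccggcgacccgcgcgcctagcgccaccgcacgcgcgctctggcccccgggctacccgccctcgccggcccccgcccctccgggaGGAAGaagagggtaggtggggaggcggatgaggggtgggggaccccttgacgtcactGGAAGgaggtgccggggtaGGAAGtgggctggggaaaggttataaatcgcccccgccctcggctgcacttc
Robo4: GGAAGcatccgtttcctcaaagctgCTTCC

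*Kdr* held 1 match, *Flt1* held 3 and *Robo4* held 2. The matches of *Robo4* began 48 and 23 bases before the RefSeq start and those of *Flt1* 128, 71 and 52 bases before it. *Tie1* held 6 and *Klf4* 1, *Tek* and *Klf2* had none, and of the 3 listed *Erg* start sites 2 held 1 each. Of all 32851 promoters 64.1% held at least 1, with a median of 1, so that the letters are common.

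*Tie1* and *Tek* encode the tyrosine kinases of the angiopoietin system, of which TEK (Tie2) binds the ligands and TIE1 modulates it. *Tie1* (chr4:118471191-118490061, minus strand) measured 110, 121, 122 and 140.2 CPM in ApoE-/- mice 1 to 4 and 157, 148, 176 and 137 CPM in WT mice 1 to 4. ApoE-/- mice 1 to 3 were below all WT mice, and ApoE-/- mouse 4 was just above the lowest WT mouse. Its log2 fold change was -0.32 with a standard error of 0.12 (edgeR adjusted p = 0.327, DESeq2 adjusted p = 0.171), and -0.27 without ApoE-/- mouse 1 (edgeR adjusted p = 0.263). Under upper-quartile scaling the genotypes did not overlap for *Tie1*.

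*Tek* (chr4:94739289-94874976, plus strand) measured 105.5, 128, 107 and 156 CPM in ApoE-/- mice 1 to 4 and 137, 155, 145.5 and 138 CPM in WT mice 1 to 4. ApoE-/- mouse 4 had the highest value of all 8 and the other ApoE-/- mice the lowest values, so the groups overlapped. *Tek* had a log2 fold change of -0.21 with a standard error of 0.14 (edgeR adjusted p = 0.693), and -0.14 without ApoE-/- mouse 1 (edgeR adjusted p = 0.657). Without ApoE-/- mouse 4 it was -0.34 (edgeR adjusted p = 0.254), and the groups then did not overlap, as for 13.5% of all genes in either direction. The ratio of *Tie1* to *Tek* CPM was 0.900 to 1.14 in ApoE-/- and 0.954 to 1.21 in WT mice.

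*Cdh5* encodes VE-cadherin, the adhesion molecule of endothelial junctions (chr8:104101625-104144511, plus strand). Its level was 234, 198, 216 and 225 CPM in ApoE-/- mice 1 to 4 and 306, 261, 262 and 294 CPM in WT mice 1 to 4. The genotypes did not overlap, and the spread within ApoE-/- mice was the smallest of the 10 genes, with a coefficient of variation of 7.10%. *Cdh5* had a log2 fold change of -0.37 with a standard error of 0.11 (edgeR adjusted p = 0.219, DESeq2 adjusted p = 0.00562), and -0.40 without ApoE-/- mouse 1 (edgeR adjusted p = 0.104). An antisense gene, *Gm29682*, overlaps *Cdh5*. The libraries were stranded and the deposited tables are named as stranded counts, but which strand option was set is not given in the sources used here.

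*Nos3*, which makes nitric oxide in endothelium, is at chr5:24364810-24384474 on the plus strand and overlaps *Atg9b* and the antisense gene *Gm15587* on the other strand. It measured 71.3, 125, 97.1 and 127 CPM in ApoE-/- mice 1 to 4 and 120.5, 127, 146 and 140.4 CPM in WT mice 1 to 4. ApoE-/- mice 1 and 3 were below all WT mice, and mice 2 and 4 were within the WT range. For *Nos3* the log2 fold change was -0.35 with a standard error of 0.19 (edgeR adjusted p = 0.578), and -0.20 without ApoE-/- mouse 1 (edgeR adjusted p = 0.456).

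*Klf2*, the flow-induced factor that activates *Nos3*, has a single annotated transcript (chr8:72319033-72321656, plus strand). Its level was 43.0, 80.0, 82.2 and 67.2 CPM in ApoE-/- mice 1 to 4 and 74.7, 86.6, 110.3 and 104 CPM in WT mice 1 to 4. ApoE-/- mice 1 and 4 were below all WT mice and the other two were between WT mouse 1 and the rest. The log2 fold change was -0.46 with a standard error of 0.22 (edgeR adjusted p = 0.503), and -0.29 without ApoE-/- mouse 1 (edgeR adjusted p = 0.365).

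*Klf4*, its relative, is induced by flow in endothelium and is also expressed by smooth muscle cells that leave the contractile state (chr4:55527143-55532466, minus strand). Its level was 40.7, 84.8, 105 and 92.1 CPM in ApoE-/- mice 1 to 4 and 89.3, 97.0, 104 and 125 CPM in WT mice 1 to 4. Apart from ApoE-/- mouse 1, whose value was 0.433 of the mean of the other ApoE-/- mice, the groups overlapped, with mouse 2 just below the lowest WT mouse and mice 3 and 4 within the WT range. The log2 fold change was -0.36 with a standard error of 0.27 (edgeR adjusted p = 0.738), and -0.14 without that mouse (edgeR adjusted p = 0.676). The ratio of *Klf4* to *Klf2* CPM was 0.946 to 1.37 in ApoE-/- and 0.944 to 1.201 in WT mice.

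The *Klf2* promoter is printed because flow reaches *Klf2* through MEF2 factors, and the letters CTANNNNTAG occur in it. With N for any base, these letters are a looser pattern than the core that MEF2 factors read, and other forms of that core were not searched. The sequence runs 5′ to 3′ from chr8:72318812-72319032 on the plus strand, and capitals mark the match, which begins 118 bases before the RefSeq start and reads as CTANNNNTAG on either strand.
Klf2: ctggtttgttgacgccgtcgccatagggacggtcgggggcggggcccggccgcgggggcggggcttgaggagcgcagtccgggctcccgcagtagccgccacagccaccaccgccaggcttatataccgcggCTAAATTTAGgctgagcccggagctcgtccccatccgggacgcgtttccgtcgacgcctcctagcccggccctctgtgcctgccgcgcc
Of all 32851 promoters 3.20% held this pattern, and among the 8 genes with a promoter only *Klf2* did. The letters CACCC, a box that KLF factors read, were in 52.0% of all promoters, and *Tie1* held 2, *Tek*, *Kdr*, *Flt1* and *Klf2* 1 each, *Klf4* and *Robo4* none, and 2 of the 3 *Erg* start sites 1 each.

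*Erg* encodes an ETS factor largely confined to endothelium in adult vessels (chr16:95359169-95586593, minus strand). Its level was 29.1, 63.9, 67.1 and 59.6 CPM in ApoE-/- mice 1 to 4 and 47.8, 52.3, 52.2 and 45.4 CPM in WT mice 1 to 4. ApoE-/- mice 2, 3 and 4 were above all WT mice, as 9.82% of all genes were without mouse 1, and mouse 1 was below all of them. The log2 fold change over all 8 was 0.15 with a standard error of 0.24 (edgeR adjusted p = 0.878), and without ApoE-/- mouse 1 it was 0.36 with a standard error of 0.09 (edgeR adjusted p = 0.0788, DESeq2 adjusted p = 0.0202). It was 0.07 without ApoE-/- mouse 2 and 0.04 without ApoE-/- mouse 3. The ratio of *Erg* to *Kdr* CPM was 0.505 to 0.584 in ApoE-/- mice 2 to 4, 0.168 to 0.248 in WT mice and 0.156 in ApoE-/- mouse 1. *Erg* was thus highest in the ApoE-/- mice 2 to 4, where *Kdr* and *Robo4* were lowest.

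**Figure D2:**
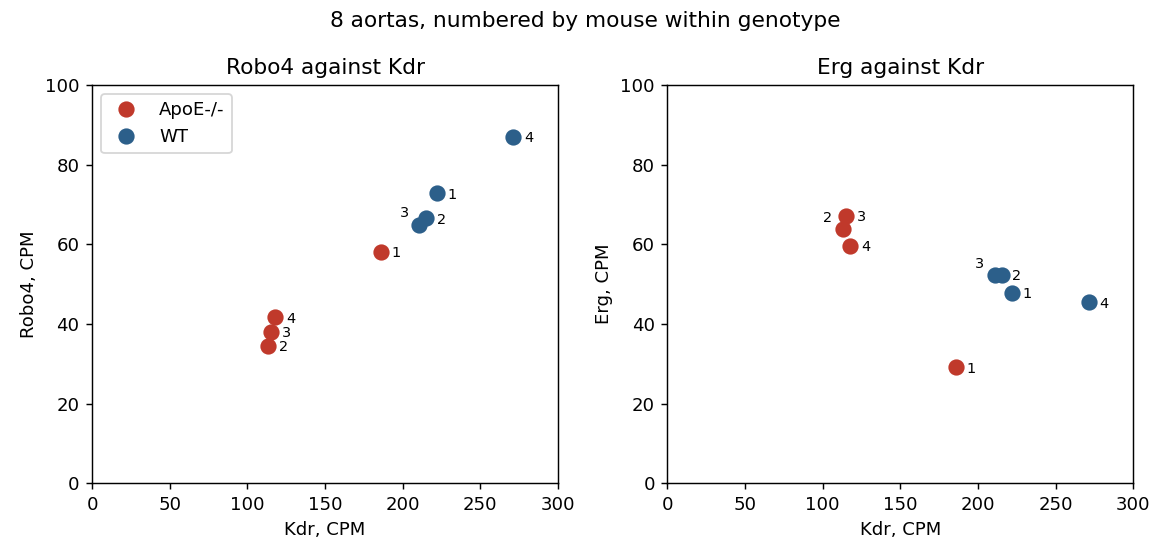
*Robo4* (left) and *Erg* (right) against *Kdr*, all in CPM on linear axes from 0, with 1 point per aorta, numbered by mouse, red for ApoE-/- and blue for WT. *Robo4* lies at 0.305 to 0.354 of *Kdr* in all 8 aortas, while *Erg* is highest in ApoE-/- mice 2 to 4, where *Kdr* is lowest, and lowest in ApoE-/- mouse 1.

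**Figure D3:**
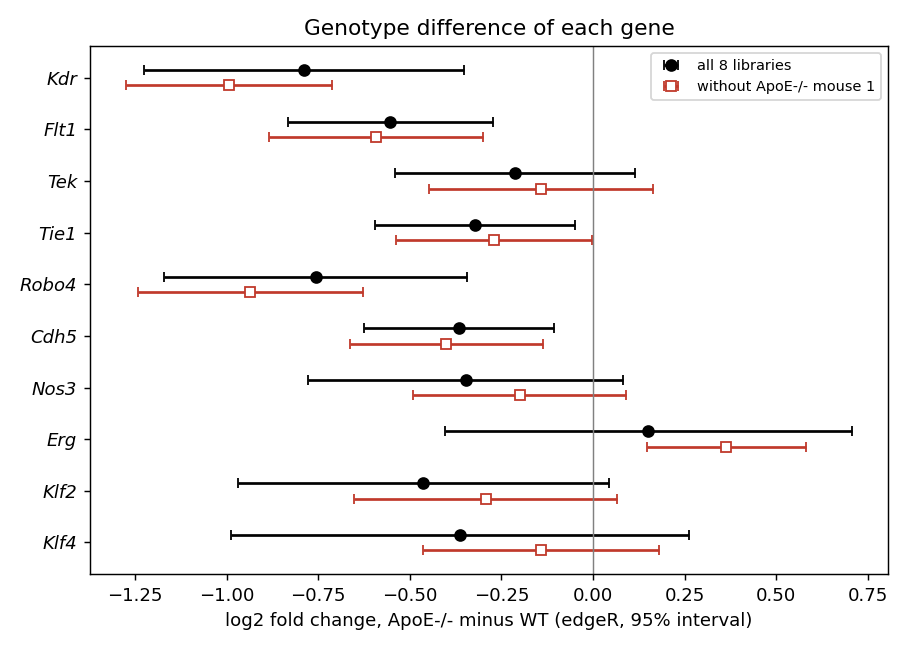
Log2 fold change of each gene, ApoE-/- minus WT, from edgeR with 95% intervals, with all 8 libraries (black circles) and without ApoE-/- mouse 1 (open red squares). Leaving this library out moves *Kdr* from -0.79 to -0.99 and *Robo4* from -0.76 to -0.94, brings *Klf4* from -0.36 to -0.14, and moves *Erg* from 0.15 to 0.36.

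To describe each gene relative to a gene that endothelial cells share, its CPM was divided by that of *Cdh5* in the same library, as a log2 ratio and without a test. Over all 8 libraries no gene separated the genotypes on this scale, where 0.504% of all genes were lower and 25.5% higher without overlap. The log2 ratio of *Kdr* to *Cdh5* was -0.33 in ApoE-/- mouse 1, -0.93 to -0.81 in the other ApoE-/- mice and -0.46 to -0.12 in WT mice. That of *Robo4* was -2.01 in ApoE-/- mouse 1, -2.52 to -2.43 in the other ApoE-/- mice and -2.07 to -1.76 in WT mice. *Erg* had -3.01 in ApoE-/- mouse 1, -1.92 to -1.63 in the others and -2.70 to -2.32 in WT mice. Without ApoE-/- mouse 1, *Kdr* and *Robo4* were therefore lower per *Cdh5* (background 1.54%) and *Erg* higher (background 37.3%) without overlap. For *Flt1*, *Tek*, *Tie1*, *Nos3*, *Klf2* and *Klf4* the ranges per *Cdh5* overlapped with and without this mouse, with mean differences of -0.19 to 0.13 on the log2 scale over all 8. In its absence the differences of *Nos3*, *Klf2* and *Klf4* turned from -0.02, -0.13 and -0.07 to 0.19, 0.11 and 0.26, those of *Tek* and *Tie1* were 0.24 and 0.13, and that of *Flt1* was -0.19.

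The ligands and partners of these receptors were described from lists written with earlier results of these data known, and no gene of any list passed edgeR's adjusted threshold over all 8 libraries. The median log2 fold change turned from negative to positive without ApoE-/- mouse 1 for the angiopoietin list (-0.16 to 0.03), the shear pathway list (-0.04 to 0.08) and the arterial list (-0.08 to 0.10). It came closer to 0 for the VEGF ligands (-0.23 to -0.07), the flow-regulated targets (-0.14 to -0.01), the other Krüppel-like factors (-0.13 to -0.00), the immediate early genes (-0.20 to -0.10) and the nitric oxide list (0.13 to 0.05), and moved from 0.02 to 0.11 for the Slit and Robo list. Of 5 VEGF ligand genes 4 had a lower mean, with a median log2 fold change of -0.23. *Vegfa*, the ligand of both VEGF receptors, had the smallest p and the highest level of this list, at 109 to 234 CPM in ApoE-/- and 211 to 322.5 CPM in WT mice (log2 fold change -0.51, edgeR adjusted p = 0.526). The lymphatic receptor *Flt4* (-0.28) and the co-receptor *Nrp1* (0.05) overlapped between genotypes, and none of the VEGF ligands or co-receptors had an unadjusted p under 0.05.

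Among 4 genes of angiopoietin ligands and the Tie phosphatase, *Angpt1*, the agonist of TEK, lay at 14.2 to 27.3 CPM in ApoE-/- and 22.3 to 37.2 CPM in WT mice (log2 fold change -0.68, edgeR adjusted p = 0.317), the only one of the list with an unadjusted p under 0.05. *Ptprb*, the phosphatase VE-PTP that restrains TEK, was the most abundant, at 476 to 784 CPM in ApoE-/- and 760 to 947 CPM in WT mice (-0.41, edgeR adjusted p = 0.471). Of 7 Slit ligands and other Robo receptors 3 were lower and 4 higher, with a median of 0.02. *Robo1* had the smallest p (0.47, edgeR adjusted p = 0.302) and *Slit3* the highest level (-0.07, edgeR adjusted p = 0.957).

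In the pathway upstream of *Klf2* and *Klf4* the differences in level were small. Of 11 genes for shear sensing, MEK5, ERK5, MEF2 factors and the CCM complex that restrains them, 6 were lower and 5 higher, the median log2 fold change was -0.04 and all lay between -0.14 and 0.26. *Mapk7*, which encodes ERK5, measured 16.4 to 19.4 CPM in ApoE-/- and 12.3 to 15.8 CPM in WT mice (log2 fold change 0.26, edgeR adjusted p = 0.46), without overlap, as 5.41% of all genes were higher. *Heg1*, the CCM receptor, was the most abundant, with a log2 fold change of -0.04. Among 11 flow-regulated targets 6 were lower and 5 higher, 3 were lower at an unadjusted p under 0.05 (4.17% of all genes), and *Aqp1*, the endothelial water channel, was at 367 to 487 CPM in ApoE-/- and 498 to 701 CPM in WT mice (-0.49, edgeR adjusted p = 0.244, DESeq2 adjusted p = 0.0208). Of 12 other Krüppel-like factors tested 8 were lower, with a median of -0.13. *Klf16* had the smallest p (0.37, edgeR adjusted p = 0.192) and *Klf9* the highest level (-0.18).

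*Klf2* and *Klf4* also respond within minutes to handling of tissue, so 11 immediate early genes were read beside them. Of these 6 were lower and 5 higher, the median log2 fold change was -0.20, none had an unadjusted p under 0.05 and every one overlapped between genotypes. Their summed level was 863 CPM in ApoE-/- mouse 1, 869 to 1788 CPM in the other ApoE-/- mice and 858 to 1595 CPM in WT mice. *Nr4a1* had the smallest p (-0.75, edgeR adjusted p = 0.595) and *Dusp1* the highest level (-0.29, edgeR adjusted p = 0.769).

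Around *Nos3*, 14 regulators and nitric oxide signalling genes had 5 lower and 9 higher, with a median of 0.13. *Cav1*, the caveolar inhibitor of NOS3, measured 558 to 912 CPM in ApoE-/- and 970 to 1037 CPM in WT mice without overlap (log2 fold change -0.44, edgeR adjusted p = 0.396), as 3.30% of all genes were lower. The kinase gene *Akt1*, whose product activates NOS3 and which was named after its values were seen, was higher without overlap (5.41% of all genes), at 125.2 to 149 CPM in ApoE-/- and 115 to 124.7 CPM in WT mice (log2 fold change 0.19, edgeR adjusted p = 0.503). *Slc7a1*, an arginine carrier, had the smallest p (0.67, edgeR adjusted p = 0.243). Around *Cdh5*, 8 of 10 junction partners were lower with a median of -0.12, and *Jam2*, a junctional adhesion molecule, lay at 109 to 119 CPM in ApoE-/- and 133 to 152.5 CPM in WT mice (-0.35, edgeR adjusted p = 0.136, DESeq2 adjusted p = 0.00298). The catenin *Ctnnb1*, which many cell types express, was the most abundant of these (0.08, edgeR adjusted p = 0.929).

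Most of the other endothelial transcription factors had lower means, unlike *Erg*. Of 13 ETS, SOX and other factors 10 were lower, the median log2 fold change was -0.30, 6 were lower at an unadjusted p under 0.05 (4.17% of all genes) and 5 were lower without overlap (3.30% of all genes) (*Sox7*, *Sox17*, *Sox18*, *Ets1* and *Tal1*, named after their values were seen). *Sox7*, which acts in vascular development, had the smallest p, at 13.02 to 14.8 CPM in ApoE-/- and 18.1 to 24.9 CPM in WT mice (-0.60, edgeR adjusted p = 0.102, DESeq2 adjusted p = 0.00515). *Epas1*, the hypoxia factor HIF-2α, was the most abundant (-0.36, edgeR adjusted p = 0.477). DESeq2 called 4 of the 13 lower (1.45% of all genes). With ApoE-/- mouse 1 left out edgeR called 1 of the 13, *Gata2*, lower (1.16% of all genes), with a log2 fold change of -0.79 in place of -0.11 and an edgeR adjusted p of 0.0133. *Gata2* measured 79.5 CPM in that mouse, 19.9 to 25.1 CPM in the other ApoE-/- mice and 37.3 to 43.4 CPM in WT mice. The sympathetic neuron markers summed to 5163, 15.96 to 361 and 210 to 879 CPM in the same order of mice. Their part in the *Gata2* level was not tested.

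All 21 other endothelial identity genes had a negative log2 fold change, from -0.72 to -0.06, with a median of -0.35, close to that of the 10 genes. The median was -0.27 without ApoE-/- mouse 1, and *Cd93* (0.02) and *Calcrl* (0.09), named after their values were seen, then had a positive log2 fold change. At an unadjusted p under 0.05 9 were lower (4.17% of all genes), 6 were lower without overlap (3.30%) and DESeq2 called 6 lower (1.45%). *Egfl7*, a matrix factor secreted by endothelium, measured 114 to 161 CPM in ApoE-/- and 193 to 256 CPM in WT mice (-0.72, edgeR adjusted p = 0.0744, DESeq2 adjusted p = 0.000162), and 0.0145 was its edgeR adjusted p without ApoE-/- mouse 1. *Vwf*, the clotting factor stored in endothelial granules, was the most abundant and overlapped, at 502 to 919 CPM in ApoE-/- and 739 to 1182 CPM in WT mice (-0.39, edgeR adjusted p = 0.664). Without ApoE-/- mouse 1 edgeR called 4 of the 21 lower (*Emcn*, *Egfl7*, *Rasip1* and *Ushbp1*), against 1.16% of all genes.

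**Figure D4:**
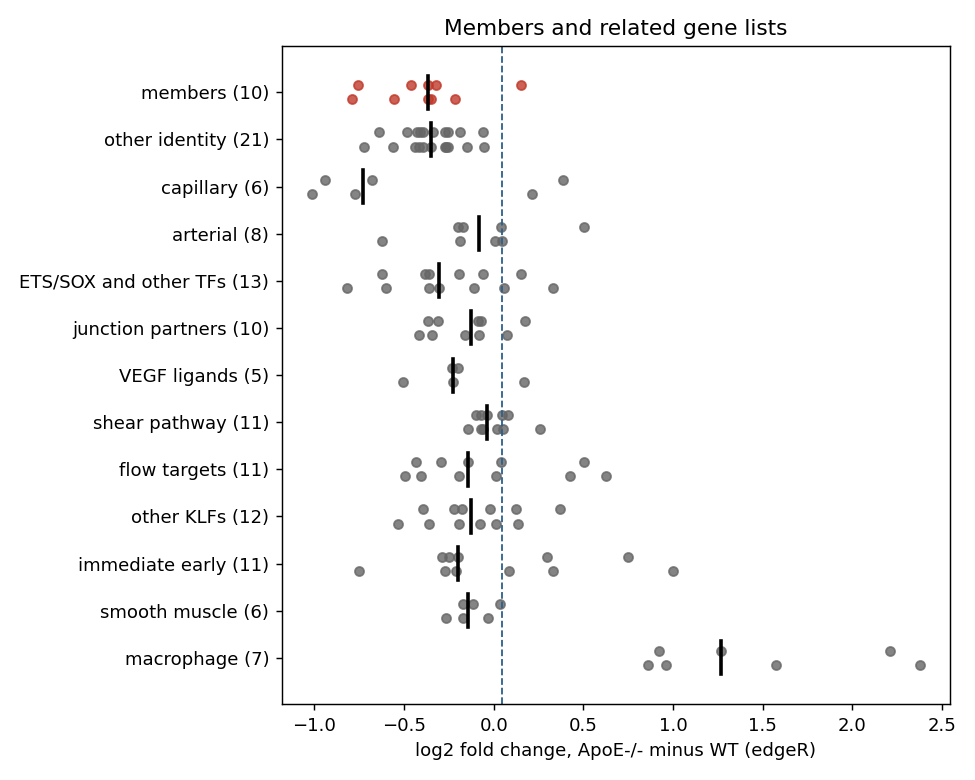
Log2 fold changes of single genes, ApoE-/- minus WT, from edgeR, with 1 point per gene, a black bar at the median of each list and a dashed line at the median of all tested genes (0.05). The 10 genes (red) and the 21 other endothelial identity genes lie mostly left of the dashed line with medians of -0.36 and -0.35, the arterial (-0.08) and shear pathway (-0.04) lists lie near it, and the macrophage list lies to its right (1.27).

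Endothelial markers of single vessel types were read apart. Of 6 capillary markers 4 were lower, with a median of -0.73, and the sum of the list was 183 to 328 CPM in ApoE-/- and 389 to 518 CPM in WT mice, without overlap. *Cd300lg*, a receptor of capillary and venule endothelium, measured 70.9 to 127 CPM in ApoE-/- and 156 to 203 CPM in WT mice (log2 fold change -0.94, edgeR adjusted p = 0.0729, DESeq2 adjusted p = 0.000217), and without ApoE-/- mouse 1 edgeR called it lower together with *Gpihbp1*, which carries lipoprotein lipase to the capillary lumen, and *Car4* (1.16% of all genes). Of 8 arterial markers 4 were lower and 4 higher, with a median of -0.08, and their sum was 232 CPM in ApoE-/- mouse 1, 387 to 431 CPM in the other ApoE-/- mice and 358 to 423 CPM in WT mice. *Sox17* had the smallest p of these (-0.62, edgeR adjusted p = 0.138) and *Jag1* the highest level (-0.17, edgeR adjusted p = 0.813). The 4 venous markers summed to 240 to 298 CPM in ApoE-/- and 301 to 347 CPM in WT mice, without overlap. Among them *Ephb4* (-0.47, edgeR adjusted p = 0.104) and *Nr2f2* (-0.49, edgeR adjusted p = 0.193) were lower and *Selp*, which inflamed endothelium and platelets express, higher (1.30, edgeR adjusted p = 0.0684), each without overlap (3.30% of all genes lower and 5.41% higher). *Nr2f2* was named after its values were seen. The edgeR adjusted p without ApoE-/- mouse 1 was 0.0275 for *Ephb4*, 0.0136 for *Selp* and 0.159 for *Nr2f2*. Of 6 lymphatic markers tested 4 were lower (*Reln* -0.45), while *Pdpn*, which fibroblasts also express, was higher (0.83, edgeR adjusted p = 0.19). *Prox1*, the lymphatic master regulator, had a log2 fold change of -0.58 (edgeR adjusted p = 0.371). Without ApoE-/- mouse 1 it was -0.88 (edgeR adjusted p = 0.00948), the only call in this list (1.16% of all genes lower). *Lyve1*, named after its values were seen, had 0.07 over all libraries and 0.31 without that mouse, and *Pdpn* then had 0.90.

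Markers of other cell types were read beside the 10 genes, and none of them was at 0 in a whole genotype. All 7 macrophage markers were higher in every ApoE-/- than in any WT aorta (5.41% of all genes), and their sum was 358 CPM in ApoE-/- mouse 1, 645 to 1613 CPM in the other ApoE-/- mice and 211 to 312 CPM in WT mice. Among them were *Itgam* (log2 fold change 1.58, edgeR adjusted p = 0.0645) and *Lyz2* (2.37, edgeR adjusted p = 0.0897). Of 7 cardiac muscle markers 6 were lower without overlap (3.30% of all genes), with a median of -2.77 and sums of 155 to 336.5 CPM in ApoE-/- and 393 to 660.0 CPM in WT mice (*Tnnt2* -2.07, edgeR adjusted p = 0.0934; *Ryr2* -0.02). All 6 adipocyte markers had lower means, with sums of 1959 to 7131 CPM in ApoE-/- and 4568 to 9256 CPM in WT mice (*Lep* -1.38, *Fabp4* -0.48). All 5 fibroblast markers had higher means (*Lum* 2.34, edgeR adjusted p = 0.0526; *Dcn* 0.27), with a sum of 2023 CPM in ApoE-/- mouse 1, 3593 to 5209 CPM in the others and 2166 to 2483 CPM in WT mice. Of 6 smooth muscle markers 5 had lower means (*Tagln* -0.26, *Myh11* -0.11) with a median of -0.14, which was 0.15 without ApoE-/- mouse 1. Of 9 genes of the endothelial-to-mesenchymal transition 7 had higher means, with *S100a4* (0.98, edgeR adjusted p = 0.17) smallest in p and *Fn1* (1.01, edgeR adjusted p = 0.517) most abundant. In whole aortas the cell types behind the levels of these 9 genes cannot be told apart. The 4 platelet markers overlapped (*Pf4* 0.29, *Itga2b* 0.33). Without ApoE-/- mouse 1 edgeR called 4 of the 7 macrophage markers and 3 of the 5 fibroblast markers higher (2.75% of all genes), 5 of the 7 cardiac markers lower (1.16% of all genes) and *S100a4* higher (log2 fold change 1.20, edgeR adjusted p = 0.0105). The part of these cell types in the levels of the 10 genes was not tested.

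Genes whose levels followed the mean of the 10 most closely over the 8 libraries were ranked by Pearson's r among 11926 other genes with a mean of at least 5 CPM, as a description. The mean of the centred log2 CPM was -0.42 in ApoE-/- mouse 1, -0.17 to -0.11 in the other ApoE-/- mice and 0.13 to 0.31 in WT mice, so each r includes the genotype difference. The 10 highest were *Kdm5d* (r = 0.98), *St6galnac2*, *Adcy4*, *Fgfr3*, *Fzd4*, *Ptprm*, *Uty*, *Timp4*, *Tinagl1* and *Amotl2* (r = 0.95). With each genotype mean removed the r values of these 10 genes ran from 0.76 for *Amotl2* to 0.99 for *Fgfr3*. *Ptprm* is a receptor phosphatase of endothelial junctions and *Fzd4* a Wnt and norrin receptor of vessels, while *Kdm5d* and *Uty* are genes of the Y chromosome. All 10 had a negative log2 fold change and none passed edgeR's adjusted threshold.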

How the data were processed

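One library was made from each of 8 mouse aortas. Per the labels and the study's methods, total RNA (500 ng) was ribodepleted, made into stranded libraries with 14 PCR cycles and sequenced as paired-end 50. Per gene, the authors deposited unnormalized counts of aligned pairs, and the submitters' processing notes name TopHat2, HTSeq and GRCm38 (mm10), without versions. Pairs without a gene, ambiguous or not unique stayed out of library sizes, and 27.9% to 35.6% of all pairs lay on genes. Gene identifiers were matched to GENCODE M21, which gave coordinates for 21817 of 21859.

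The 10 genes were taken by symbol. Counts were tested with edgeR 4.0.16 in R 4.3.3 (filterByExpr, TMM, robust quasi-likelihood fit, two-sided), with genotype as the only term and Benjamini-Hochberg adjustment over 15077 genes at 0.05. DESeq2 1.42.0, limma-voom (limma 3.58.1), other scalings and filters, the replicate number as a block and each library left out were alternatives, and DESeq2 without each library was added after the data were seen. TPM used merged exon lengths. The methods were tested on simulated data with log2 changes of 1.5 and 3. These are larger than the changes of the 10 genes, so that test does not cover differences of their size. Lists were described by counts and medians only. The named genes were all 10, in each list those past the threshold or else the smallest p and the highest level, and the 10 most alike in pattern; others are said to be named after their values were seen, or are those called under an alternative. The 10 genes and all lists were chosen with earlier results of these data known. Each library is a separate mouse.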

Additional observations from a re-analysis of the deposited data

Results flagged for a closer look

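Of 20 groups examined (10 genes in each of 2 genotypes), 1 had a library far from the others, and chance would give about 1. It was *Kdr* in ApoE-/- mice, where mouse 1 measured 186 CPM and the other ApoE-/- mice 113 to 118 CPM. Its gap to the nearest of the others was 0.934 of the range of the group, above Dixon's 95% critical value for 4 samples. The same library had the highest sum of sympathetic neuron markers, at 5163 CPM, and the lowest sum of smooth muscle markers, at 4678 CPM, and the part of either in the *Kdr* level was not tested. Without it the log2 fold change of *Kdr* was -0.99 in place of -0.79.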

How the results depend on the processing

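No log2 fold change of the 10 genes changed sign under any alternative. The small genotype differences of the log2 ratios to *Cdh5* did for *Nos3*, *Klf2* and *Klf4* without ApoE-/- mouse 1 (0.19, 0.11 and 0.26), for *Nos3* also without ApoE-/- mouse 3 (0.01) or WT mouse 3 (0.06), and for *Tie1* without ApoE-/- mouse 4 (-0.0034) or WT mouse 4 (-0.035). edgeR called none of the 10 with all 8 libraries, and DESeq2 called 4. Leaving out 1 library at a time gave 0 to 3 calls among the 10 with edgeR, the 3 only without ApoE-/- mouse 1, and 2 to 5 with DESeq2, the 2 (*Kdr* and *Flt1*) without WT mouse 4 and the 5 without ApoE-/- mouse 1. Without WT mouse 1 DESeq2 called 3. Over all genes edgeR called 70, DESeq2 721 and limma-voom 29, and leaving out 1 library gave 0 to 593 with edgeR and 431 to 1548 with DESeq2. In those edgeR fits 1269 to 2826 genes had an unadjusted p under 0.05. edgeR called 17 genes without ApoE-/- mouse 2, and 2 or fewer without any other library except ApoE-/- mouse 1. limma-voom, other scalings and other filters called none of the 10. The number of the 10 without overlap was 4 (8.71% of all genes in either direction), 5 under upper-quartile scaling (8.58%) and 4 to 6 with 1 library left out (10.3% to 17.3%). With the replicate number as a block edgeR called none of the 10 and 2 genes in all, but the numbers belong to different mice and the correlation of same-numbered deviations ran from -0.45 to 0.32, so the block does not pair them. With 4 mice a genotype, 716 to 6662 read pairs lay behind each value of the 10 genes, so that the spread between mice rather than counting limits these comparisons.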
